A study of Mus musculus with 2 samples.

Results

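The peaks described here were found by DLX2 CUT&Tag in replicate 2, the more deeply covered of 2 libraries, and had no counterpart in replicate 1. They were chosen by that absence: a replicate 2 peak on chromosomes 1 to 19 was taken when it shared no base with any replicate 1 peak and lay within 2 kb of either end of a protein-coding gene. Of the 62093 peaks of replicate 2, 61053 lay on these chromosomes, 50501 of them met no replicate 1 peak, and 5234 of those lay at a coding gene end. They are called replicate 2-only gene-end peaks below. A further 704 gene-end peaks of replicate 2 met a replicate 1 peak and are called shared. The paper reports fewer peaks for each replicate, and fewer common to both, than the deposited lists used here hold. Which of the peaks described here belong to the paper's set is not known. Both libraries came from maxillary process cells of wildtype C57BL/6 embryos at E12.5, with an antibody against DLX2 (Abcam, ab272902), and formed 1 group. No control library, other genotype or input was analysed here, and how many embryos went into a library is not given in the sources used here. A peak list measures neither gene expression nor cell identity, so the labelled tissue could not be checked against its marker genes. Every replicate 2-only peak comes from 1 library, so there is no replicate error on its values. The intervals given are 95% Wilson intervals that cover counting error only, and neighbouring peaks are not independent of each other.

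DLX2 is a homeodomain transcription factor of the neural crest-derived jaw primordia and of the forebrain, and homeodomain proteins recognise short AT-rich sequences. The start of a gene carries its core promoter, where RNA polymerase assembles, and in mammals many such starts lie in CpG islands, stretches rich in G, C and the dinucleotide CpG. In CUT&Tag a transposase tethered to the antibody cuts and tags nearby DNA, and open promoter DNA can also be tagged without the antibody's target, which is why a control library is usually compared.

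The upstream sequences of the genes whose starts carried the strongest replicate 2-only peaks are shown to place these peaks at their promoters. Among 171 promoter windows that lay outside every coding gene and were met by such a peak, the 5 with the highest fold enrichment are printed, as the 250 bases before the gene start, read 5′ to 3′ on the strand of the gene, from RefSeq on mm10, which is GRCm38. Capitals mark the bases inside the peak. They belong to *4931408C20Rik*, a gene known only by its clone name (chr1:26687461-26687710, minus strand), *Gpr157*, an orphan G protein-coupled receptor (chr4:150087253-150087502, plus strand), *Pvrig*, an inhibitory receptor of lymphocytes (chr5:138341681-138341930, plus strand), *Def8* (chr8:123442706-123442955, plus strand) and *Fam177b* (chr1:183275733-183275982, minus strand).
4931408C20Rik: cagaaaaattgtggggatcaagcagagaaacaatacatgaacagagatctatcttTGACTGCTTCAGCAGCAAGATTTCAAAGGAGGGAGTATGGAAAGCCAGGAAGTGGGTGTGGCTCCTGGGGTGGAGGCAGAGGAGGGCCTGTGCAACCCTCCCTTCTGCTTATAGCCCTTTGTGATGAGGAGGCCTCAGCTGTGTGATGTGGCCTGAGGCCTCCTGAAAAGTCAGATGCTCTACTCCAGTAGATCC
Gpr157: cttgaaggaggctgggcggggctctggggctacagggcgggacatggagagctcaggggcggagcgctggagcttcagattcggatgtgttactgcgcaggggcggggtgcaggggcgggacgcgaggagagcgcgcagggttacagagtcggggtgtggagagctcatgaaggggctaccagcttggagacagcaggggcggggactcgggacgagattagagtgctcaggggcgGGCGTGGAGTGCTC
Pvrig: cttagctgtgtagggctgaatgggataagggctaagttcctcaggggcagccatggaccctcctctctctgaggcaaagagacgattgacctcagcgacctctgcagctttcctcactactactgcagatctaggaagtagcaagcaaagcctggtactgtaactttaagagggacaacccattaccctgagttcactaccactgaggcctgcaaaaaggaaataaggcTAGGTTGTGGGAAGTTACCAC
Def8: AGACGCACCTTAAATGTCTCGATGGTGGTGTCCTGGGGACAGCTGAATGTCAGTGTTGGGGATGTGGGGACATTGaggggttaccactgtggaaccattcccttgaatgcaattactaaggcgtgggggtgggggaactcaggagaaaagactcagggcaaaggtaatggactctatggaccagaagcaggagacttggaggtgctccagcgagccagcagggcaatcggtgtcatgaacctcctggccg
Fam177b: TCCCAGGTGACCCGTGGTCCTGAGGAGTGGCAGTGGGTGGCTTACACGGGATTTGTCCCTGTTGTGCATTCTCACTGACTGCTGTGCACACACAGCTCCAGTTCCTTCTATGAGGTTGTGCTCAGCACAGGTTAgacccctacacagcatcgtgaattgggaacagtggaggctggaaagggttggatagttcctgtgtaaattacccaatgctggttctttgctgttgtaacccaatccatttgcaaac

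The peak at *4931408C20Rik* covered 195 of the 250 bases, with a fold of 8.46, whereas that at *Gpr157* reached only 14 bases upstream of the start and lay mostly inside the gene, with a fold of 6.49. The peaks at *Pvrig*, *Def8* and *Fam177b* had folds of 6.47, 5.84 and 5.71 and covered 21, 75 and 134 of the printed bases. The printed stretches, most of whose bases lay outside the peak at all of these genes but *4931408C20Rik* and *Fam177b*, were unlike each other. The *Gpr157* stretch, nearly all of it upstream of the peak, was 67.2% G and C, held 18 CpG dinucleotides and held the GC box GGGCGG, a binding site of SP-family factors. The *4931408C20Rik* stretch was 51.2% G and C and held 0 CpG dinucleotides. None of the 5 held TAATTA, the core sequence bound by many homeodomain proteins, and only *Fam177b* held CCAAT.

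Replicate 2-only gene-end peaks were weak and short. Fold enrichment, a ratio deposited by the authors of the summit's fragments to background around it, had a median of 3.85, with quartiles of 3.50 and 4.35 and a highest value of 9.09. A fold of at least 5 was reached by 502 of the 5234 peaks, or 9.59% (interval 8.82 to 10.4%), and a fold of at least 8 by 3. The −log10 q of the peak caller had a median of 2.34, and 206 peaks, or 3.94% (interval 3.44 to 4.50%), reached 5. It was under 2 for 2086 peaks, or 39.9% (interval 38.5 to 41.2%). The median length was 188 bp, with quartiles of 148 and 256 bp and a range of 119 to 985 bp. Behind these folds stood few fragments. Their number at the summit, worked back from the deposited fold and −log10 p, had a median of 9, quartiles of 8 and 10 and a lowest value of 6. Only 11 of the 5234 peaks had 20 or more.

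Shared gene-end peaks of the same library were stronger and longer. Their median fold was 4.57 (quartiles 3.84 and 5.50) and their highest was 22.5. Their median length was 277.5 bp, with quartiles of 191.75 and 395.5 bp. They rested on a median of 11 fragments. Of the 704, 37.2% had a fold of at least 5, 25.6% a −log10 q of at least 5 and 14.8% a length of at least 500 bp, whereas 2.14% of the replicate 2-only peaks were that long. The quartile ranges of the fold overlapped, and 211 shared peaks, or 29.97%, had a fold under 4. Sharing chose the members, so these differences describe the sets and were not tested. Peaks in replicate 2 alone that lay away from gene ends resembled those at gene ends, with a median fold of 3.95 and a median length of 182 bp.

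**Figure D1:**
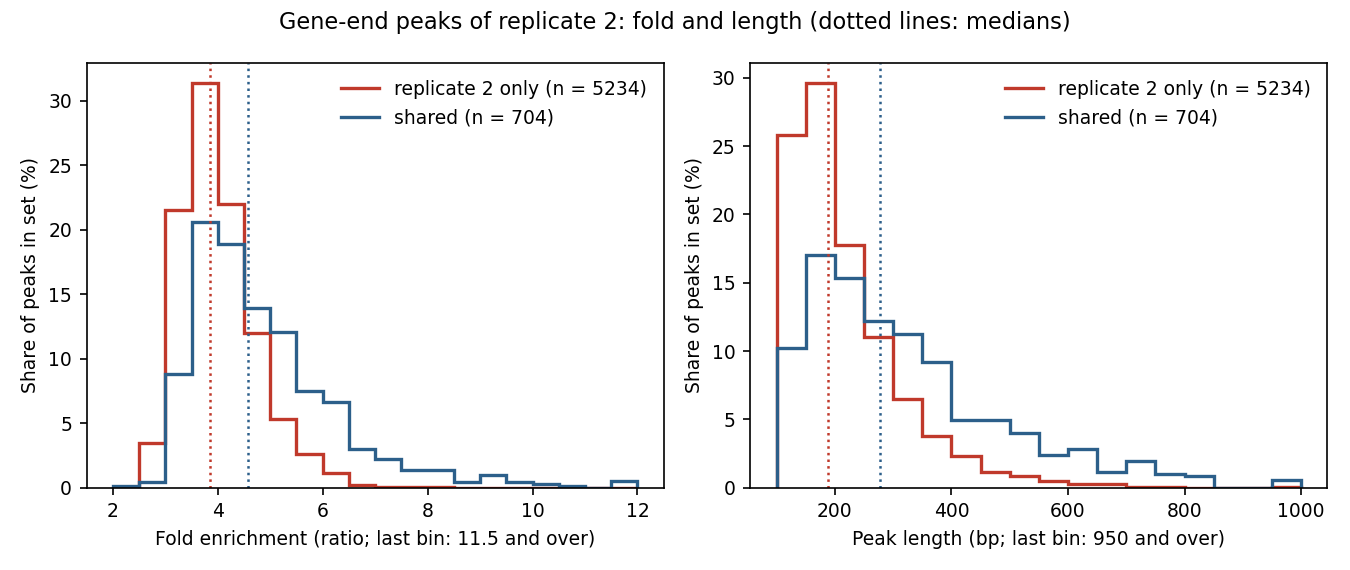
Share of peaks (%) by fold enrichment (left) and by length in bp (right), for gene-end peaks found in replicate 2 alone and for shared gene-end peaks of replicate 2; dotted lines mark the medians, and the last bin holds all higher values. The replicate 2-only peaks lie to the left in both plots, with medians of 3.85 against 4.57 for fold and 188 against 277.5 bp for length, and the sets overlap widely.

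The share of replicate 2 peaks with a replicate 1 counterpart was lower at gene ends than elsewhere. Of the 5938 at gene ends, 11.9% met a replicate 1 peak (interval 11.1 to 12.7%), and of the 55115 elsewhere 17.9% did (interval 17.6 to 18.2%). Among peaks with 8 or fewer fragments the shares were close, at 6.34% at gene ends (interval 5.45 to 7.37%) and 6.46% elsewhere (interval 6.16 to 6.78%). With 9 or 10 fragments they were 9.18% and 14.04%. With 11 to 13 they were 16.9% (interval 14.8 to 19.2%) and 28.4% (interval 27.5 to 29.4%). With 14 to 19 they were 44.6% and 59.6%. With 20 or more they were 79.6% (interval 67.1 to 88.2%) and 91.5% (interval 89.6 to 93.0%). The intervals of gene-end peaks and other peaks did not overlap in any class above 8 fragments. The local background of a peak was higher at gene ends, with a median of 1.40 fragments for replicate 2-only peaks there and 1.26 for those elsewhere; its part in the lower shares was not tested.

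**Figure D2:**
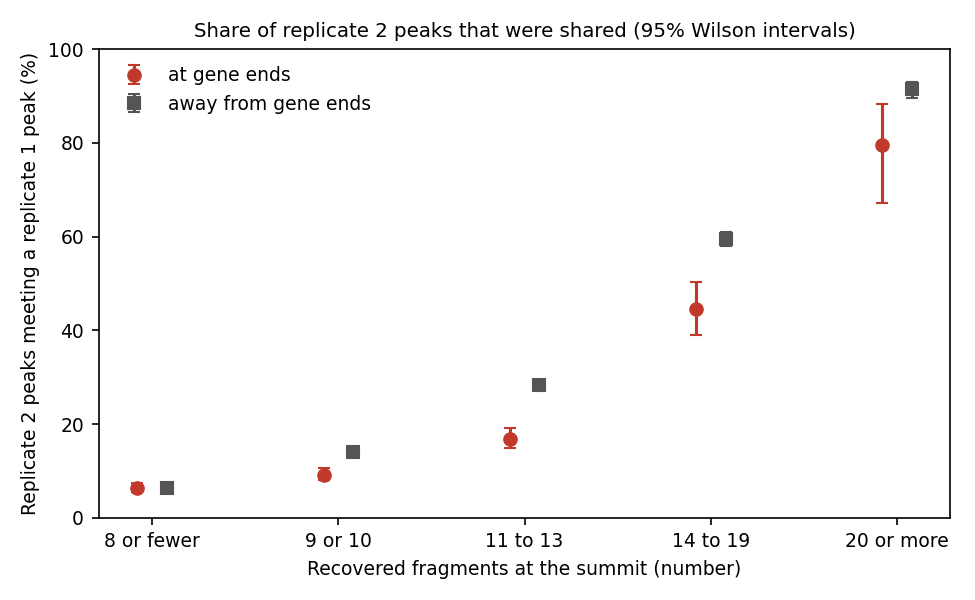
Share of replicate 2 peaks that met a replicate 1 peak (%), by the fragments found at the summit, for peaks at coding gene ends (circles) and elsewhere (squares), with 95% Wilson intervals. Both rise with the number of fragments, and the gene-end peaks lie lower in each class above 8 fragments, for example 16.9% against 28.4% at 11 to 13.

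Gene-end windows covered 140 Mb, or 5.85% of the chromosome span used, and held a larger share of the unshared peaks than of the shared ones. Of the replicate 2 peaks, 10.4% of the unshared (interval 10.1 to 10.6%) and 6.67% of the shared (interval 6.21 to 7.16%) lay there. Of the unshared peaks of replicate 1, 9.26% lay at gene ends (interval 8.83 to 9.70%). Of its shared peaks 6.52% did (interval 6.07 to 7.002%). These overlap the shared peaks of replicate 2, so that value is not an independent one. Replicate 2-only peaks were found at 37.3 per Mb in the gene-end windows and 20.01 per Mb elsewhere, a ratio of 1.86. The ratio was 1.64 for replicate 1-only peaks and 1.15 for shared peaks. These densities describe the lists and were not tested.

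Few replicate 2-only peaks lay close to a replicate 1 peak. The nearest replicate 1 peak lay a median of 17.65 kb away, with quartiles of 7.28 and 38.7 kb. It lay within 150 bp of 56 of the 5234 peaks (1.07%) and within 500 bp of 155 (2.96%). For replicate 2-only peaks away from gene ends, 3.25% had a replicate 1 peak within 500 bp. At the limit of the rule, the peaks at *Spr*, *H1f10* and *Banp*, with folds of 3.44, 4.47 and 3.33, ended where a replicate 1 peak began, with 0 bases between, and were taken. Those at *Cys1*, *Cbx6* and *Spcs2*, with folds of 4.10, 3.45 and 4.34, overlapped a replicate 1 peak by 4 bp and counted as shared. At the limit of 2 kb, the peaks at *Pcdhga5* (2000 bp from a gene end), *Ccdc51* (2000 bp) and *Tmem154* (1999 bp) were taken, and those at *Noxred1*, *Morn1* and *Dpf1*, each at 2001 bp, were not. Their folds were 5.24, 3.36 and 2.82 inside the limit and 3.81, 4.61 and 5.20 outside it.

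Summits of replicate 2-only peaks gathered just inside gene starts and were sparse at the 3′ ends of genes. Strand was known for 16456 of the 20556 genes. Around their starts, the 250 bp bins on either side of the start held a mean of 220 summits each, and the outermost 500 bp on each side held a mean of 120 per bin. The fullest bin, 250 to 500 bp inside the gene, held 253 summits. Of the 2246 summits within 2 kb of a start, 61.5% lay on the gene side of it. Around 3′ ends the pattern was the opposite, with a mean of 83 summits in each of the central bins against 160 in the outer ones. The lowest bin, the last 250 bp of the gene, held 77 summits.

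The other peak sets resembled the replicate 2-only set at 3′ ends and differed among themselves in the central bins at starts. Replicate 1-only peaks, from the other library, had a mean of 63.5 summits in each of the central bins at starts and 41.5 in the outer ones, and 23.5 against 45 at 3′ ends. Shared peaks had 16.5 against 17 at starts, and 7.5 against 17.25 at 3′ ends. Their bins from 0 to 250 and from 250 to 500 bp inside the start held 22 summits each, as did the bin from 1000 to 1250 bp. The bin just upstream of the start held 11. With 33 shared summits in the central 500 bp at starts, a small excess would not have been detectable. The central bins of the set found in both libraries thus showed no excess like that of both unshared sets, but so few summits cannot establish its absence. The difference was not tested, since sharing defined the sets.

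**Figure D3:**
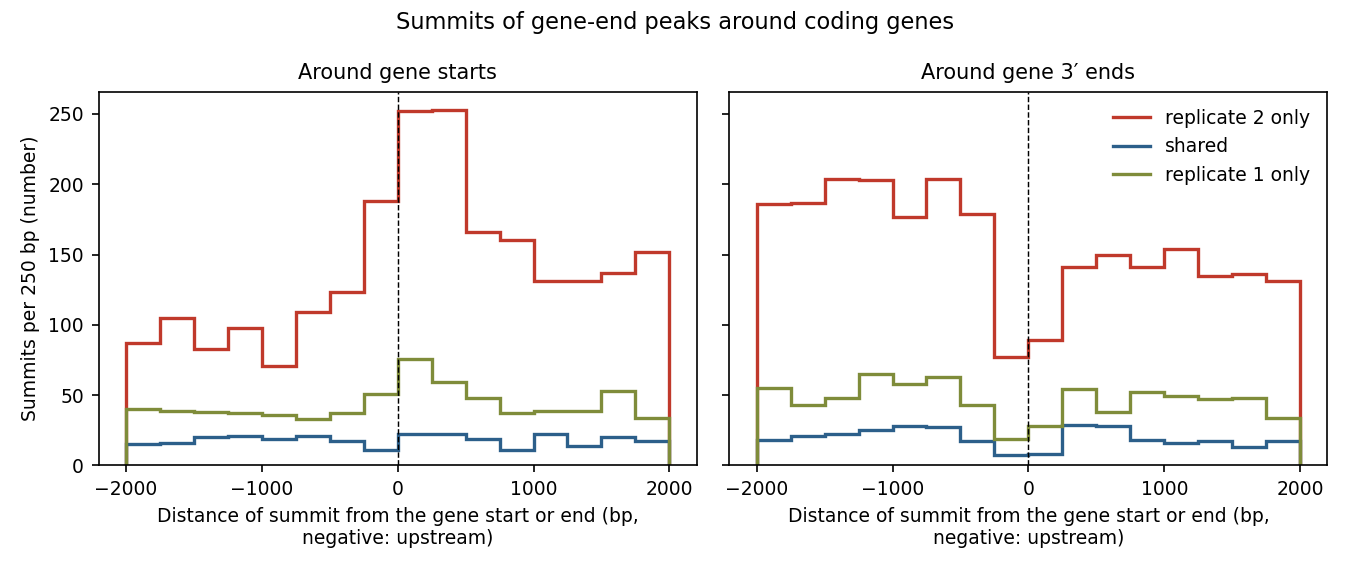
Number of peak summits per 250 bp against distance in bp from gene starts (left) and from gene 3′ ends (right), negative values lying upstream on the gene's strand, for gene-end peaks found in replicate 2 alone, in replicate 1 alone and in both. The replicate 2-only line peaks at 253 just inside the start and drops to 77 at the 3′ end. The shared line runs between 11 and 22 around starts.

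The strength of replicate 2-only peaks changed little with position. Replicate 2-only peaks within 250 bp of a start had a median fold of 3.995 (quartiles 3.64 and 4.50, 563 peaks) and a median length of 201 bp. Those over 1 kb from a start had a median fold of 3.89 and a length of 184 bp. Within 250 bp of a 3′ end, 266 peaks had a median fold of 3.81 and a length of 198.5 bp. The background of these peaks was lowest next to starts, with a median of 1.22 fragments, and highest next to 3′ ends, at 1.601. Shared peaks had a median fold of 4.27 within 250 bp of a start (54 peaks) and 4.87 over 1 kb from it (121 peaks). At 3′ ends these medians were 4.70 (34 peaks) and 4.23 (106 peaks). Of the replicate 2-only peaks whose nearest end had a strand, 47.7% were nearest to a start (interval 46.2 to 49.3%), and of the shared ones 49.7% (interval 45.5 to 54.0%). The summit lay inside the gene for 60.8% of the replicate 2-only peaks (interval 59.5 to 62.1%) and for 51.7% of the shared peaks (interval 48.0 to 55.4%). A gene end lay within the peak itself in 272 cases.

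Promoter windows met by a replicate 2-only peak were richer in CpG than promoters as a whole. RefSeq gave 20084 windows of 300 bases, from 250 before to 50 after the start, for the 16456 genes, and 467 of them were met. Their median content of G and C was 61.3%, against 57% over all windows, and the median ratio of observed to expected CpG was 0.666 against 0.586. With CpG-rich meaning at least 50% G and C and a CpG ratio of at least 0.6, 56.7% of the windows met were CpG-rich (interval 52.2 to 61.2%), compared with 46.5% of all windows (interval 45.8 to 47.2%). Of CpG-rich windows 2.84% were met and of CpG-poor windows 1.88% (intervals 2.52 to 3.20% and 1.64 to 2.15%). Windows met by a replicate 1-only peak were CpG-rich in 59.8% of cases (67 of 112, interval 50.6 to 68.4%) and windows met by a shared peak in 52.2% (24 of 46, interval 38.1 to 65.9%).

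Short motifs in these windows are given beside base content. TAATTA, searched on both strands, was present in 13 of the 467 windows met by a replicate 2-only peak, or 2.78% (interval 1.63 to 4.70%), and in 4.47% of all windows. Within CpG-rich windows it was in 1.89% of those met (5 of 265) and 1.36% of all, and within CpG-poor windows in 3.96% (8 of 202, interval 2.02 to 7.62%) and 7.17%. GGGCGG, the GC box, was in 58.7% of the windows met (interval 54.2 to 63.1%) and 47.0% of all windows. Within CpG-rich windows it was in 78.9% of those met (interval 73.6 to 83.4%) and 76.8% of all. Within CpG-poor windows it was in 32.2% of those met (interval 26.1 to 38.9%) and 21.2% of all. CACGTG, the E-box of MYC- and MNT-type factors, was in 10.5% of the windows met and 7.89% of all. TTCCGG, an ETS core, was in 23.6% and 19.1%. For TTCCGG the shares were 30.2% and 31.3% within CpG-rich windows. Within CpG-poor windows they were 14.9% (interval 10.6 to 20.4%) and 8.48%. TGTGGT, the RUNX core, was in 12.6% and 14.8%, and CCAAT in 35.5% and 38.1%. These 6 motifs were chosen after the data had been seen, a peak may meet a window without covering the motif, and a match of letters is not a binding site.

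The replicate 2-only peaks lay at the ends of 5133 of the 20556 coding genes on chromosomes 1 to 19, which is 25%; shared gene-end peaks lay at 774 genes, which is 3.77%. A single such peak was found at 4342 genes, 2 at 718, and 3 or more at 73, with at most 4. For 4398 of the 5133 genes, replicate 1 had no gene-end peak of any kind. Most coding genes had none, since 8.32% of all had a replicate 1-only gene-end peak and 3.77% a shared one. A replicate 1-only peak elsewhere at the ends of the same gene was found for 534 of the 5133, or 10.4% (interval 9.60 to 11.3%). It was found for 7.62% of genes without a replicate 2-only peak (interval 7.22 to 8.05%). A shared peak was found for 227 of the 5133, or 4.42% (interval 3.89 to 5.02%), and for 3.55% of the other genes (interval 3.27 to 3.85%). By chromosome, the share of genes with a replicate 2-only peak ran from 17.97% on chromosome 13 to 31.8% on chromosome 15.

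Genes with a replicate 2-only peak were of ordinary length. Their median was 17.8 kb, against 17.6 kb over all coding genes and 20.7 kb for genes with a shared peak. The share with a replicate 2-only peak was 28.3% at 4 to 10 kb, 28.1% at 10 to 30 kb, 24.4% at 30 to 100 kb and 23.5% over 100 kb (interval 21.8 to 25.3%). Genes under 4 kb stood lower, at 18.4% (interval 17.2 to 19.7%). Without the olfactory and vomeronasal receptor genes, whose median length in this annotation was 0.951 kb, the share under 4 kb was 24.5% (interval 22.9 to 26.2%). The shared peaks gave 2.72% under 4 kb and between 3.89% and 4.11% in the longer classes.

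Across 28 gene classes taken by symbol, the share of genes with a replicate 2-only peak ranged from 5.98% to 55.6%, and for 21 of the classes the interval held the background of 25%. The intervals were not adjusted for the number of classes. Olfactory and vomeronasal receptors, chemosensory genes in large clusters that are silent in most tissues, were lowest, with 87 of 1454 genes. Their interval ran from 4.88 to 7.32%. Histone genes (6 of 56, 10.7%, interval 5.004 to 21.5%) and chemokines, interleukins and interleukin receptors (17 of 114, 14.9%, interval 9.52 to 22.6%) also lay below the background. The histone genes had a median length of 0.539 kb. Over all genes under 4 kb the share was 18.4%, or 24.5% without the olfactory and vomeronasal receptors, and the part of length was not tested. C2H2 zinc finger genes, a large family of mostly repressive DNA-binding factors, stood at 21.0% (87 of 415, interval 17.3 to 25.1%).

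For classes that run the basic machinery of the cell, the shares ran from 14.7% to 29.8% and each interval held the background. Cytosolic ribosomal protein genes had a replicate 2-only peak in 20 of 81 cases (24.7%). A shared peak was found at 0 of the 81, which allows a share of up to 4.53%. Mitochondrial ribosomal protein genes had one in 18 of 78 (23.1%), respiratory chain subunits in 29 of 98 (29.6%), proteasome subunits in 14 of 47 (29.8%), splicing and RNA-binding proteins in 31 of 129 (24.0%), and the ubiquitin pathway in 44 of 162 (27.2%). The lower ones were tRNA synthetases, with 7 of 35 (20%, interval 10.04 to 35.9%), translation initiation factors, with 10 of 53 (18.9%, interval 10.6 to 31.4%), and DNA replication genes, with 5 of 34 (14.7%, interval 6.45 to 30.1%). Among these classes, *Rpl27a*, a protein of the large ribosomal subunit, had a peak 131 bp inside its start with a fold of 5.71 on 11 fragments. *Psmb3*, a proteasome core subunit, had 3 such peaks, the strongest 90 bp past its 3′ end with a fold of 5.97. Solute carriers, the membrane transporters, were also near the background, at 92 of 362 (25.4%). The genes named for coiled-coil or transmembrane structure (*Ccdc* and *Tmem*) stood somewhat higher, at 112 of 365 (30.7%, interval 26.2 to 35.6%).

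**Figure D4:**
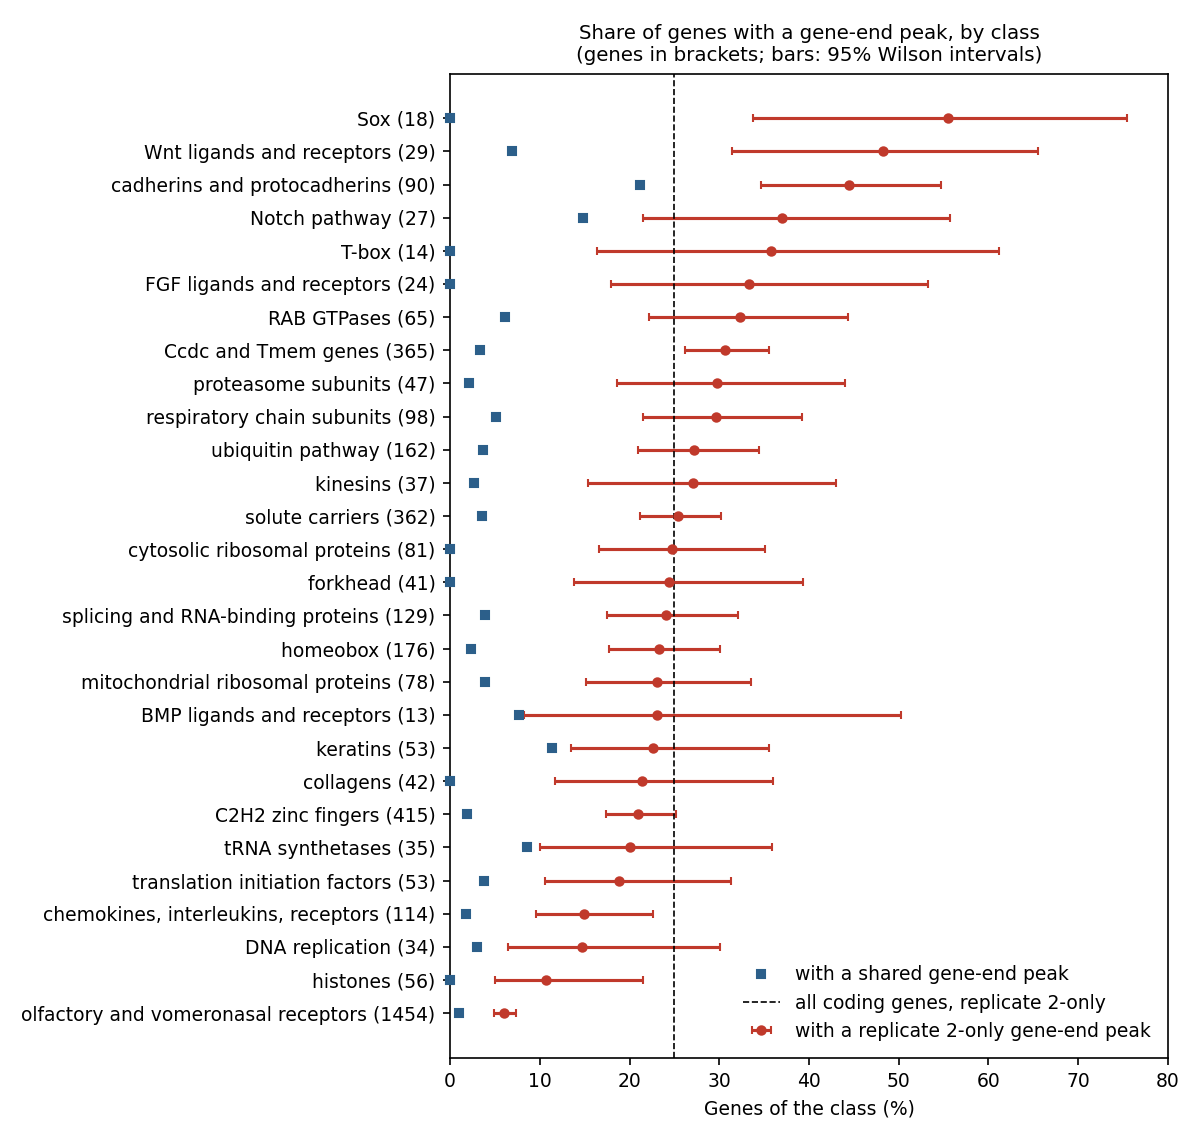
Share of genes (%) in each of 28 classes with a replicate 2-only gene-end peak (circles, with 95% Wilson intervals) and with a shared gene-end peak (squares); the dashed line is the 25% of all coding genes, and the number of genes is in brackets. Olfactory and vomeronasal receptors lie lowest at 5.98%, the intervals of the housekeeping classes cross the line, and Sox, Wnt and cadherin genes lie above it.

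Outside the signalling and patterning families, the following peaks, each the strongest or next strongest of its class, had folds between 4.76 and 6.84. The highest fold among olfactory receptor genes was 6.33 at *Olfr221*, 1657 bp past its 3′ end, and the next was 5.71 at *Olfr1388*. Among C2H2 zinc finger genes *Zfp672* and *Zfp692* followed *Zfp612*, and 1 peak of 794 bp with a fold of 6.44 counted for both. *Dars*, the aspartyl-tRNA synthetase, had a peak with a fold of 6.84 and *Fbxl2*, an F-box protein of a ubiquitin ligase, one with 6.62, 206 bp inside its start. *Slc4a8*, a bicarbonate transporter, had one with 6.27, *Atp5c1*, a subunit of ATP synthase, one of 693 bp with 6.19, and *Sf3b2*, a splicing factor, one with 6.08. *Mcm9*, a helicase related to the replication helicase, had one with 5.71, *Il23a*, a cytokine subunit, one with 5.69, and *H3f3a*, a gene for the histone variant H3.3, one with 5.49. *Foxk1*, a forkhead factor, had one with 5.28 and *Kif23*, a kinesin of cell division, one with 5.02. *Eif5a*, a translation factor, had one with 5.03, and the keratin gene *Krt10* one with 4.76. The nearest replicate 1 peak to these 15 peaks lay 1.75 kb away or farther.

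The Sox and Wnt genes were the developmental classes above the background. Sox factors, which carry an HMG-box DNA-binding domain and direct cell fate in neural crest, cartilage and many other tissues, had a replicate 2-only peak at 10 of 18 genes (55.6%, interval 33.7 to 75.4%), namely *Sox2*, *Sox4*, *Sox7*, *Sox8*, *Sox9*, *Sox12*, *Sox13*, *Sox14*, *Sox17* and *Sox30*. Each had 1 peak, and the folds ran from 3.86 at *Sox8* to 5.23 at *Sox4*, whose peak lay 1272 bp from the start and stood on 11 fragments. None of these 10 genes had a replicate 1-only or shared peak at its ends. Among all genes with a replicate 2-only peak, 10.4% had a replicate 1-only one and 4.42% a shared one. A replicate 1-only peak lay at 3 of the 18 Sox genes, none of them among those listed here. No Sox peak reached a −log10 q of 5, where 1.11% of all coding genes had such a peak; the interval of 0 of 18 reached 17.6%.

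Of the 29 genes for Wnt ligands and their Frizzled receptors, which pattern the facial processes among many tissues, 14 had a replicate 2-only peak (48.3%, interval 31.4 to 65.6%). The ligands were *Wnt1*, *Wnt2b*, *Wnt5a*, *Wnt7b*, *Wnt8a*, *Wnt9b*, *Wnt10b* and *Wnt16*, and the receptors *Fzd1*, *Fzd2*, *Fzd3*, *Fzd5*, *Fzd8* and *Fzd9*. The strongest peak of the class lay at *Wnt5a*, a ligand of the non-canonical pathway needed for outgrowth of the face and limbs, on chromosome 14 at 28503447 to 28503771. It lay outside the gene, 772 bp from an end, with a fold of 7.63 and a −log10 q of 9.64 on 17 fragments, and the nearest replicate 1 peak was 7.08 kb away. *Fzd1*, a Wnt receptor, followed with a fold of 6.19 on 12 fragments, 1058 bp inside its start. *Wnt8a* had 2 peaks, the stronger with a fold of 5.81. These 3 genes were the only Wnt genes whose peak reached a −log10 q of 5, or 10.3% of the 29 (interval 3.58 to 26.4%) beside 1.11% of all coding genes. A replicate 1-only peak also lay at an end of *Wnt16*.

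Cadherin and protocadherin genes, which encode cell adhesion molecules, had a replicate 2-only peak at 40 of 90 genes (44.4%, interval 34.6 to 54.7%), and 21.1% had a shared peak. Most of this came from the clustered protocadherins on chromosome 18, whose genes overlap in the annotation, so that 1 peak can count for several. In these clusters 31 of 57 genes had a replicate 2-only peak (54.4%, interval 41.6 to 66.6%), from 34 peaks, more peaks than genes. A shared peak was found at 17 of the 57, from 7 peaks, fewer peaks than genes. The cadherin and protocadherin genes outside these clusters stood at 9 of 33 (27.3%, interval 15.1 to 44.2%), near the background. The strongest cluster peaks lay at *Pcdha7*, *Pcdhb5* and *Pcdhga6*, each with a fold of 6.19 on 12 fragments.

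For the other signalling and patterning classes the intervals held the background. Notch pathway genes had a replicate 2-only peak at 10 of 27 (37.0%, interval 21.5 to 55.8%), among them the receptors *Notch1*, *Notch2* and *Notch3*, the ligands *Dll4* and *Jag2*, and the transcriptional repressors *Hes5* and *Hes7*. The strongest was *Hes7*, a segmentation clock gene, with a fold of 5.09. FGF ligands and receptors had one at 8 of 24 (33.3%, interval 17.97 to 53.3%), led by *Fgfr3*, a receptor that restrains bone growth, with a fold of 4.87 on 15 fragments. T-box factors had one at 5 of 14 (35.7%, interval 16.3 to 61.2%) and BMP ligands and receptors at 3 of 13 (23.1%), with *Bmp2*, a bone-inducing ligand, at a fold of 3.81. Collagens had one at 9 of 42 (21.4%), the strongest at *Col6a2* with a fold of 5.84.

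Homeobox genes, the family to which DLX2 belongs, stood near the background, with 41 of 176 (23.3%, interval 17.7 to 30.1%). The highest fold among them was 5.71, at *Irx1*, an Iroquois patterning factor, and that peak was the only one of the class with a −log10 q of at least 5. The list also held *Msx1*, a regulator of palate and tooth development (fold 3.70), *Alx1* and *Alx4*, regulators of facial morphogenesis (folds of 4.28 and 3.67), *Barx2* (4.55), *Lhx6* (4.55) and *Pitx1* (2.83). The *Pitx1* peak stood on 7 fragments with a −log10 q of 1.03, close to the lowest value listed. A single peak of fold 3.72 counted for both *Hoxc4* and *Hoxc5*, whose annotated extents lie together.

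Of 14 genes, the Dlx family and others that the study names around DLX2, 6 had a replicate 2-only gene-end peak and none had a shared one. Over all coding genes these shares were 25% and 3.77%, and a difference from them was not tested on so few genes. At *Dlx2* itself the peak lay inside the gene, 790 bp from the start, on chromosome 2 at 71545817 to 71545964. It had a fold of 3.79 and a −log10 q of 2.05 on 8 fragments, near the median of the set. *Dlx3* had a peak with a fold of 3.08 and *Dlx5* one with a fold of 4.77 on 10 fragments. *Runx2*, the master regulator of osteoblasts, had a 426 bp peak inside the gene 775 bp from its 3′ end, with a fold of 4.26. *Sox9*, the regulator of cartilage formation, had one with a fold of 4.38 and *Wnt1* one with a fold of 4.15. In each case the nearest replicate 1 peak to this peak was at least 8.90 kb away. *Dlx1*, *Dlx4*, *Dlx6*, *Zeb2*, *Rora*, *Msx2* and *Mmp13* had no gene-end peak in either library, and *Mnt*, a MAX-binding repressor, had a replicate 1-only one.

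The 10 strongest replicate 2-only gene-end peaks had folds from 7.14 to 9.09. The strongest lay on chromosome 7 at 128204155 to 128204595, 840 bp outside *Cox6a2*, the muscle form of a cytochrome c oxidase subunit, and also within 2 kb of an end of *Itgad*, an integrin. It was 441 bp long, with a −log10 q of 15.5 on 25 fragments over a background of 1.86. The nearest replicate 1 peak lay 30.1 kb away. The second met the start of *4931408C20Rik*, as printed above, with 23 fragments, and the nearest replicate 1 peak lay 605 kb away. The third lay inside the predicted gene *Gm42372*, with a fold of 8.25, a length of 597 bp and 20 fragments. *Wnt5a* came next.

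The remaining 6 of these lay at genes of various functions. *Myl4*, an embryonic and atrial myosin light chain, *Slc30a4*, a zinc transporter, and *Dlat*, a subunit of pyruvate dehydrogenase, had peaks with the same fold of 7.62, on 15 fragments over a background at the lowest value in the library, 1.101 fragments. *Zfp612*, a zinc finger gene, had a 610 bp peak with a fold of 7.57, *Cpa5*, a carboxypeptidase, one with a fold of 7.24, and *Atoh7*, a factor needed for retinal ganglion cells, one with a fold of 7.14. Of the 10, 3 had their summit inside the gene and the others outside it, and the peaks lay at up to 1913 bp from the end. The replicate 1 peak nearest to each was 5.24 kb away or more.

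Among the genes with 4 replicate 2-only peaks, 7 in all, those with the highest summed fold were *Cacna2d4*, *Psmd1*, *Zfp251*, *Ramp1* and *Larp1*. None of these 5 had a peak of replicate 1 at its ends, and neither had 4398 of all 5133 genes with a replicate 2-only peak. At *Cacna2d4*, an auxiliary subunit of calcium channels, 1 peak lay 488 bp outside an end and the other 3 lay 228, 1121 and 1520 bp outside the other end, near *Adipor2*, with folds of 4.79, 5.55, 4.91 and 3.49. *Psmd1*, a subunit of the proteasome's regulatory particle, had 3 peaks between 130 and 874 bp inside its start, with folds of 5.06, 3.36 and 4.19, and 1 beyond its 3′ end. *Ramp1*, a co-receptor for calcitonin gene-related peptide, had 2 peaks at each end, with folds from 3.72 to 4.20. *Larp1*, a regulator of the translation of ribosomal protein mRNAs, also had 2 at each end, 1 of them across its start with a fold of 3.56.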

How the data were processed

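DLX2 CUT&Tag libraries of the E12.5 maxillary process were examined as peak lists, 1 per replicate, in mm10. The submitters' processing notes list Trim Galore 0.4.5, Bowtie 1.1.2 and MACS2 2.2.7. The study's methods name other versions of the trimming and alignment tools and no peak caller, and the labels describe sonicated chromatin where the methods describe transposase tagging. Peaks were called by the authors for each replicate on its own, with a lowest deposited −log10 q of 1.00 in both lists. The deposited fold sets summit fragments against background. The deposited −log10 p and −log10 q are the peak caller's, and the deposited score restates the −log10 q and was not used.

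Read totals are not given in the lists. Fragments at the summit and background were recovered from fold and −log10 p, taking fold as fragments plus 1 over background plus 1 and p as a Poisson tail. A whole number was found for 100% of autosomal peaks in both replicates within 0.001. The lowest background, a measure of coverage, was 0.387 fragments in replicate 1 and 1.101 in replicate 2. Genes were the 20556 protein-coding RefSeq genes of GRCm38.p6 on chromosomes 1 to 19. A further 105 listed before position 3000000, outside the assembled start of these chromosomes, were left out. Strand came from the RefSeq promoter table, which held no gene of chromosome 18. Distances run from the nearest base of a peak to a gene end, and a peak within 2 kb of several genes counted for each. Printed sequences came from windows outside every coding gene. No test was run, because whether a peak was shared chose the set and there is 1 group. The overlap, distance and fragment steps were tested on simulated data. The software was pandas 2.3.3 and numpy 2.4.6 under Python 3.11.15, with matplotlib 3.10.9, statsmodels 0.14.6 and scipy 1.17.1.

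The set, the gene classes and the named genes were chosen with earlier results of these data known. Named genes are the 10 highest-fold peaks, the 5 genes with most peaks, for each class the 2 genes with the highest-fold peak (named for some classes only, beside other genes chosen for their role after their values were seen), 14 genes (the Dlx family and others that the study names) and the peaks at the limits. Alternatives were a −log10 q or fold of at least 5, windows of 1 and 5 kb, other definitions of sharing and leaving out replicate 1.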

Additional observations from a re-analysis of the deposited data

How the results depend on the processing

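Of 47 alternatives to the main values, 17 stayed within 1.5 times a count or within the interval of a share or median, and 30 did not. A −log10 q of at least 5 left 206 replicate 2-only gene-end peaks at 229 genes, 7.94% of all replicate 2-only peaks so filtered, with a median fold of 5.86 and a median length of 298 bp; the shared gene-end peaks then had medians of 6.28 and 391 bp. At a fold of at least 5 these values were 502, 553, 7.85%, 5.38, 256 bp, 5.90 and 366 bp. Windows of 1 kb gave 3048 peaks, 3101 genes and 6.04%. Windows of 5 kb gave 10410 peaks, 9133 genes and 20.6%, and a median fold of 4.70 for shared peaks. Counting replicate 2 peaks as shared when a replicate 1 peak lay within 500 bp gave shared peaks a median fold of 4.30 and length of 259 bp. Requiring 50% of each peak to overlap gave medians of 3.89 and 192 bp for replicate 2-only peaks and 4.66 and 237 bp for shared ones. Without replicate 1, the gene-end peaks were 9.73% of all replicate 2 peaks, with medians of 3.93 and 194 bp. Without replicate 2 the set has no peaks. The filters and windows change these values by their construction. In each alternative with both sets, the shared peaks had the higher median fold and length.

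Of 56 class counts, recomputed at a −log10 q of at least 5 and for gene starts alone, 54 were lower than the main count by a factor over 1.5. Under that filter on q, 1.11% of all coding genes had a peak, as had 0 of 18 Sox genes, too few to set apart from that share, and 3 of 29 Wnt genes, or 10.3% (interval 3.58 to 26.4%). Fragments number 9 at the median summit, so a site missing from replicate 1, whose coverage was lower, cannot be told apart from one too weak to be listed there, and no control library separates bound sites from open DNA.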
